A study of Mus musculus with 5 samples.

Results

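RNF12 is an E3 ubiquitin ligase that marks transcription factors such as REX1, and cofactors of LIM-homeodomain proteins, for degradation by the proteasome. REX1 (gene *Zfp42*) is a zinc-finger protein of mESCs that is related to YY1 and represses *Xist*, the RNA that silences an X chromosome. The sites described here are RNF12 WT peaks that lie in introns or between genes and that no peak of REX1 or of the catalytically inactive RNF12 (H569A,C572A) overlaps. A peak was counted when it overlapped no peak of either other list by 1 bp or more, when its summit lay more than 1 kb from every annotated transcription start site (TSS), and when its summit lay outside all exons. On chromosomes 1 to 19 and X, 24350 of the 97272 RNF12 WT peaks met these conditions (25%), 8273 of them with −log10 q of at least 5, and the 3 lists of the series together hold 291776 peaks. Of the 24350 sites, 14582 were intronic and 9768 intergenic. They are called RNF12-only distal sites below, and they were chosen by the called peaks of the 3 libraries and by position, so the absence of partners and the distance from TSSs are not results.

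The peaks come from ChIP-seq of mESCs. For the 2 RNF12 libraries these were female cells of the F1 2-1 129/Sv-Cast/Ei line. The 2 RNF12 libraries were made from Rlim+/- cells, which keep an *Rlim* (*Rnf12*) allele, and in which electroporated, puromycin-selected constructs express FLAG-V5-RNF12 or FLAG-V5-RNF12 H569A,C572A from the constitutive CAG promoter. These cells were treated with the proteasome inhibitor MG132 at 15 μM for 3 h and cross-linked with 2 mM disuccinimidyl glutarate and 1% formaldehyde before precipitation through the V5 tag. The REX1 library is labelled as FLAG-V5-REX1 in WT mESCs, while the study's text treats the REX1 profile as older than its RNF12 ones, and whether those cells received MG132 was not settled. Each list stands on 1 library, so no value has a replicate error and no test between conditions was possible. The control libraries were not analysed here. Intervals are 95% Wilson intervals for shares, Newcombe intervals for differences and order-statistic intervals for medians. They cover counting error over peaks only, and neighbouring peaks and copies of a repeat are not independent. The number of reads is not given with the peaks, so depth is unknown.

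The sequences of 6 sites of high fold enrichment show the base composition that the results below turn on. Each line gives the summit and 50 bases on either side of it, on the plus strand of GRCm38 (mm10), in lower case. Capitals mark the E-box CAGCTG, or 1 of the 5 words of 8 bases that gained most at the summits on either strand. Of the windows of the 12 strongest sites, 6 intronic and 6 intergenic, 5 hold a marked string and all 5 are shown for it, so these lines overstate how common the strings are. The first line holds none, and is shown because it belongs to the intronic site with the highest fold enrichment.
Wdfy3 intron, chr5:101875300-101875400: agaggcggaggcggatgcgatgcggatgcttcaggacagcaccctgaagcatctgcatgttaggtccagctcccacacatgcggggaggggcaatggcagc
Myom3 intron, chr4:135803446-135803546: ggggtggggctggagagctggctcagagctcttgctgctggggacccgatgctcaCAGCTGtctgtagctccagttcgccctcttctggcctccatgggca
Dgcr6 and Prodh introns, chr16:18061339-18061439: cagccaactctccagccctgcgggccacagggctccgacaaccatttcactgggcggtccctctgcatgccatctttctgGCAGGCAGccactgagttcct
Igsf21 intron, chr4:140044040-140044140: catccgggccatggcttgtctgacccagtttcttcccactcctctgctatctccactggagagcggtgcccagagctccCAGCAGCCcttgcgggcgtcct
intergenic, nearest TSS of Gm8439, chr4:120582247-120582347: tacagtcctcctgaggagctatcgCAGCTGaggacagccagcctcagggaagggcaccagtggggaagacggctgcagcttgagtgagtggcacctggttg
intergenic, nearest TSS of Gm3142, chr15:75364230-75364330: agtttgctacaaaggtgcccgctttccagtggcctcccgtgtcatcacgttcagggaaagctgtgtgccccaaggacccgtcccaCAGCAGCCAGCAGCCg
All 12 windows were GC-rich, between 61.4% and 67.3% G or C, and held 1 to 6 CpGs. The 32 bases at each of the 12 summits occur once in the genome. The window in *Myom3* had 84 soft-masked bases, whereas those in *Wdfy3*, *Igsf21* and near *Gm8439* had 0.

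Introns held more of these sites than intergenic DNA did for their length. The intronic share was 59.9% (59.3% to 60.5%), while introns make up 43.5% of the 2319 Mb that lie beyond 1 kb of a TSS and outside exons. This came to 14.4 intronic and 7.46 intergenic sites per Mb. RNF12 WT peaks of the same positions that overlapped a peak of another list were spread evenly, at 9.85 per Mb of intron and 10.1 per Mb of intergenic DNA. Their intronic share was 42.8% (42.2% to 43.5%), and that of the RNF12-only distal sites was 17.1 points higher (16.2 to 18). REX1-only distal sites leaned to introns too, at 53.2%, which the RNF12-only distal sites exceeded by 6.70 points (5.89 to 7.51), while mutant RNF12-only distal sites stood at 38.5%. Among intronic RNF12 WT peaks 59.5% (58.8% to 60.1%) had no partner, against 42.4% (41.7% to 43.0%) of intergenic ones, 52.1% of exonic ones and 19.1% of those within 1 kb of a TSS. The last class was the one in which partners in both other lists were most common, at 53.5% (53.0% to 54%).

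**Figure D1:**
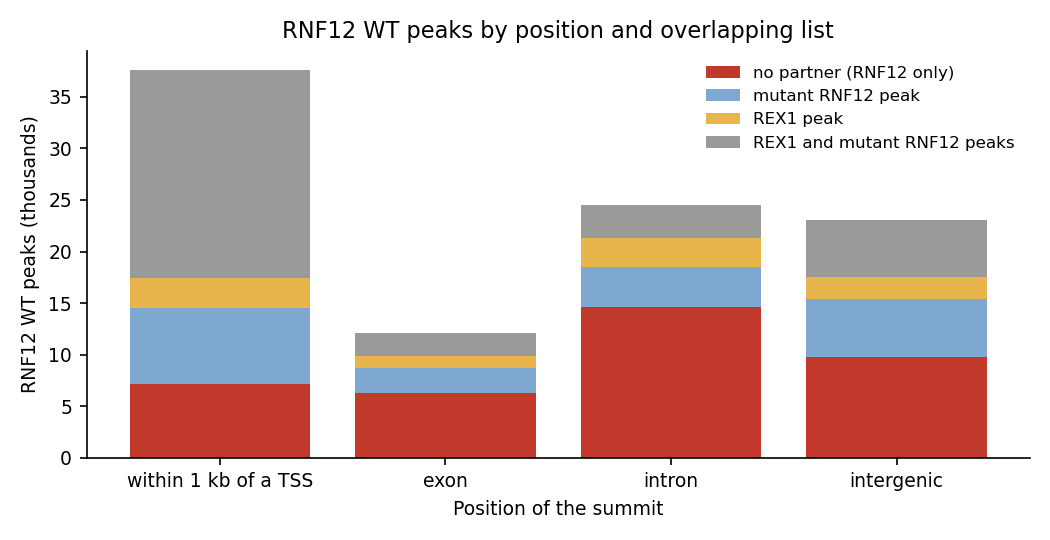
Bars give the number of RNF12 WT peaks on chromosomes 1 to 19 and X, in units of 1000, by the position of the summit. Colours give the list that overlaps the peak, and the red part of the intron and intergenic bars holds the 14582 and 9768 RNF12-only distal sites.

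Distances to TSSs are given as a description, since the rule set their lower limit. The median distance to the nearest TSS was 10532 bp (10331 to 10749), and 16.2% (15.7% to 16.7%) lay within 3 kb, 48.3% within 10 kb and 90.4% within 50 kb. For the same positions with a partner, 40% lay within 10 kb, which is 8.31 points fewer (7.42 to 9.20). The shares within 10 kb were 49.5% (49% to 50%) for REX1-only and 37.4% for mutant RNF12-only distal sites. First introns held 3060 of the 11779 intronic sites that could be placed in the longest transcript of a single protein-coding gene (26.0%, 25.2% to 26.8%). First introns also make up 25.6% of the intron length of those transcripts. The density was therefore close to even, at 13.6 per Mb of first intron and 13.3 per Mb of other introns. The median intronic site was 2133 bp (2066 to 2215) from an exon edge, and 14.4% lay within 200 bp of one.

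Few sites had another within 1 kb, but many had one within 10 kb. The nearest other RNF12-only distal site was 12494 bp away at the median. One lay within 1 kb of 9.03% (8.68% to 9.40%) and within 10 kb of 44.5% (43.9% to 45.2%). The spacing was not compared with that of randomly placed sites. The nearest RNF12 WT peak of any kind was 4944 bp away at the median, and within 10 kb for 68.1%. The gap to the nearest REX1 peak was 5778 bp (5617 to 5918) and that to the nearest mutant RNF12 peak 7661 bp (7502 to 7829). A peak of either other list lay within 1 kb of 5472 sites (22.5%, 22.0% to 23.0%). The closest cases touched without overlapping. An intergenic site 7269 bp from the TSS of *Pitpnm3* (fold enrichment 6.91) ended where a REX1 peak began or began where it ended, with 0 bp between them, and an intronic site in *Osbpl3* (fold enrichment 5.63) stood in the same way beside a mutant RNF12 peak.

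Within the RNF12 WT list, the sites were narrow and lay low in −log10 q but not in median fold enrichment. This is given as a description because strength bears on the overlap that chose them. Over the whole list the medians were 4.59 for fold enrichment, 4.62 for −log10 q and 126 bp for width. The fold enrichment of the RNF12-only distal sites over the control was 4.78 at the median (4.74 to 4.81). Its quartiles were 4.02 and 5.53, and 4 sites shared the highest value of 10.4. Positions of the same kind with a partner had a lower median, 4.20 (4.17 to 4.20), but a longer upper end, reaching 15.8. The −log10 q ran the other way, at 4.11 against 4.53 at the median, with highest values of 17 and 32.6. The median width was 104 bp against 128 bp, and 26.2% (25.6% to 26.7%) of the RNF12-only distal sites were at most 90 bp wide, close to the narrowest width in the list, 86 bp. When the whole list was ordered by −log10 q, the sites made up 30.5% of the lowest 10% of peaks and 6.76% (6.28% to 7.28%) of the highest. RNF12-only peaks near TSSs and in exons had similar medians of 4.54 and 4.58 for fold enrichment, and 110 and 111 bp for width.

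**Figure D2:**
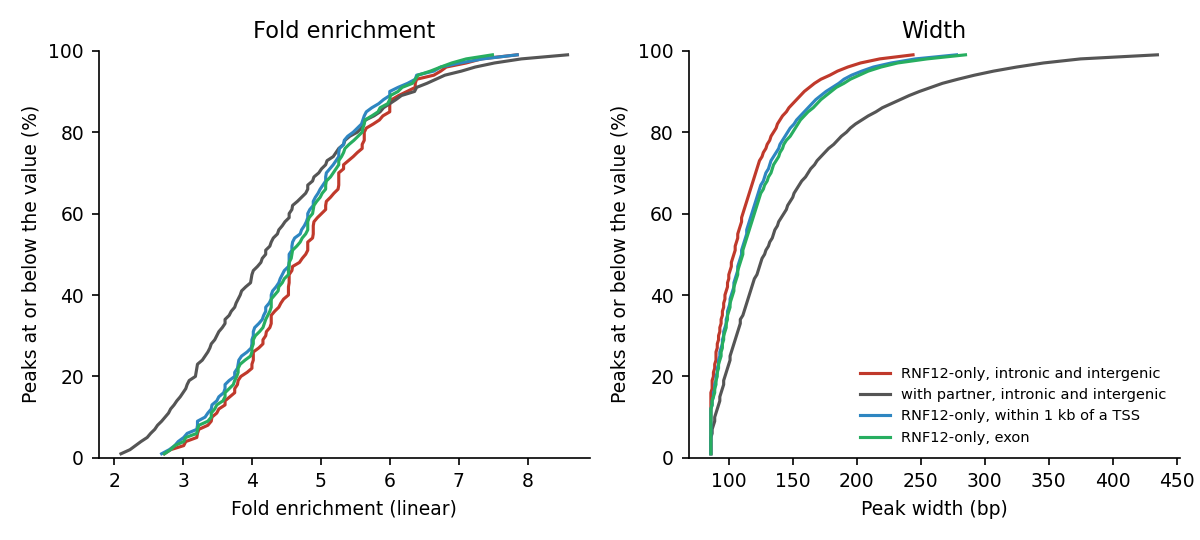
Curves give the percentage of RNF12 WT peaks at or below each fold enrichment (left) and each width in bp (right), from the 1st to the 99th percentile. The red curve of the RNF12-only distal sites (medians 4.78 and 104 bp) lies right of the grey curve of sites with a partner (4.20 and 128 bp) in most of the left panel and left of it in the right panel.

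The 6 intronic sites with the highest fold enrichment ran from 10.4 down to 9.48. They lay in *Wdfy3*, which encodes a scaffold of selective autophagy (fold enrichment 10.4, −log10 q 15.4), *Myom3*, a myomesin of the sarcomere M-band (10.2 and 17), *Tenm4*, a teneurin of neuronal adhesion (10.1 and 14.3), and in a stretch shared by *Dgcr6* and *Prodh*, the latter for proline oxidation (10.1 and 14.3). The other two lay in *Igsf21*, for a synaptic adhesion protein (9.81 and 13.9), and *Syap1* on the X chromosome (9.48 and 12.9). The 6 strongest intergenic sites had fold enrichments of 10.4 to 9.69. Their nearest TSSs were those of *Eri1* at 2257 bp, *Gm3142* at 12989 bp, *Ube2v2* at 6177 bp, *Gm8439* at 6448 bp, *Gm42577* at 14844 bp and *Col6a3* at 29086 bp. The gap to the nearest REX1 peak ranged from 610 bp for the *Tenm4* site to 82556 bp for the *Gm3142* site, so no single distance marked the strongest sites. Among sites free of soft-masked bases, 2 of the 3 strongest intergenic ones are those near *Gm8439* and *Gm42577*, and the other was 8853 bp from the TSS of *Rpl7a-ps7* (9.69).
At the 1 kb limit the nearest sites on either side were as follows. The 3 sites just outside it were 1002 bp or less from the TSSs of *Cemip2* (fold enrichment 4.54), *Tdg* (5.26) and *Atoh1* (4.11). The 3 RNF12-only peaks just inside it were 1000 bp from the TSSs of *Acacb* (4.28) and *Gm27353* (4.02) and 999 bp from that of *Osbpl7* (4.84).

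The summits were rich in G and C and held fewer CpGs than that content would give. The rule did not use these features directly. No CpG value is given for DNA beside the summits or for the genome at large. The summit with 50 bases on either side was 59.4% G or C at the median, against 48.5% for windows centred 300 bp away, and 41.3% over all bases open to the position rule. At least 55% G or C was found in 88.9% (88.5% to 89.3%) of the summits. The same positions with a partner had a median of 63.4%, REX1-only distal sites 54.5% and mutant RNF12-only distal sites 59.4%. The shares with at least 55% G or C were 95.9%, 46.5% and 82.9% in these classes, and the RNF12-only share was above that of REX1-only distal sites by 42.4 points (41.7 to 43). CpG was present at 0.271 of the number that the C and G content would give, and at 0.482 in sites with a partner, 0.259 in REX1-only and 0.564 in mutant RNF12-only distal sites. A summit window without any CpG was found in 13.5% (13.1% to 14%) of the RNF12-only distal sites and in 6.98% of those with a partner, a difference of 6.54 points (6 to 7.08). It was more common in REX1-only distal sites, at 21.3% (difference −7.77 points, −8.37 to −7.16), and was found in 8.95% of mutant RNF12-only distal sites.

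Repeat content differed from that of partnered and mutant RNF12-only sites by more than from that of REX1-only sites. The rule left out RNF12 WT peaks that overlap the mutant list, so this contrast is not independent of the choice of the sites. Reference bases in lower case, called soft-masked here, mark repeats and low-complexity sequence. A soft-masked summit was found in 14.7% (14.3% to 15.1%) of RNF12-only distal sites, below the 35.8% of bases open to the position rule. The share was 29.5% where a partner needed 50% overlap of both peaks, and 22.7% where it needed summits within 100 bp. By the 1 bp rule, 50.1% (49.5% to 50.8%) of RNF12 WT sites of the same positions with a partner had a soft-masked summit, a difference of −35.4 points (−36.2 to −34.7) for the RNF12-only sites. In REX1-only distal sites the share was 21.3%, and in mutant RNF12-only distal sites 85.6% (85.2% to 85.9%). Around the RNF12-only distal sites the share fell towards the summit, from 22.7% (22.3% to 23.1%) at 300 bp, and around mutant RNF12-only sites it rose from 55.5%. The 32 bases at the summit occurred once in the genome in 93.8% (93.5% to 94.1%) of RNF12-only distal sites, in 51.6% of those with a partner and in 17.3% of mutant RNF12-only distal sites. Over 100 copies were found for 0.739%, 25% and 46.2% of these classes, in that order. Intergenic sites were soft-masked more often than intronic ones, at 18.4% against 12.2% (intronic minus intergenic −6.12 points, −7.06 to −5.20), and the bases open to the rule were too, at 40.2% against 30.1%.

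**Figure D3:**
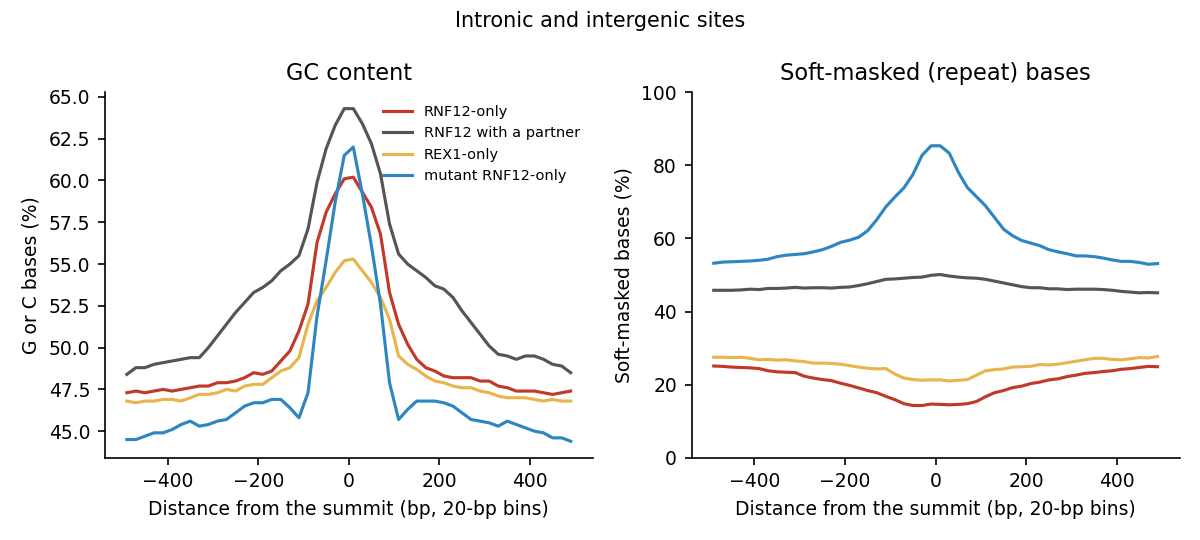
Lines give the percentage of G or C bases (left) and of soft-masked bases (right) in 20-bp bins up to 500 bp from the summit, for intronic and intergenic sites of 4 classes. GC rises at the summit in all 4, while the soft-masked share is 14.7% beside the summit for RNF12-only sites and 85.3% for mutant RNF12-only sites.

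The kind of partner set apart the RNF12 WT sites of the same positions. With a REX1 peak alone, 10.9% (10.1% to 11.8%) of 4972 summits were soft-masked, 95.9% had 32 bases found once, and the median GC was 59.4%, all near the values of the RNF12-only distal sites. With a mutant RNF12 peak alone, 60.5% (59.5% to 61.5%) of 9564 summits were soft-masked and 40.1% had 32 bases found once. With both, the shares were 61.2% and 39% of 8688, and the median GC was 66.3%. The intronic share fell in the same order, at 59.9% without a partner, 56.2% with REX1 alone, 41.2% with the mutant alone and 36.9% with both. How reads that map to several copies were counted could bear on these shares, and its part was not tested.

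The motif string of RNF12 WT was found at few of these sites. The string, written with ambiguous letters after the study's RNF12 logo and searched on both strands with 1 mismatch allowed, was found within 50 bp of 92 of the 24350 summits (0.378%, 0.308% to 0.463%), against 0.162% of the windows at 300 bp. In sites with a partner it was found in 17.5% (RNF12-only minus partnered −17.2 points, −17.7 to −16.7), and among these in 38.4% (37.4% to 39.4%) with both other lists, 7.56% with the mutant alone and 0.302% with REX1 alone. The REX1 string, ATGGCNNC, was found in 8.12% (7.78% to 8.47%) of RNF12-only distal summits and 5.03% of their flanks. This was below the 12.8% of sites with a REX1 peak alone, the 15% of sites with both partners and the 19.7% of REX1-only distal sites, and above the 7.05% (6.55% to 7.58%) of sites with the mutant alone and the 3.98% of mutant RNF12-only distal sites. The core of the YY1 site, AAGATGGC, stood at 0.682% and 0.688% at summits and flanks (difference −0.00616 points, −0.129 to 0.125). Sites for ETS factors, CCGGAAG, were in 1.11% of summits, 0.507% of flanks and 6.64% of the sites with a partner.

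E-boxes and several GC-rich strings were more frequent at the summits. Of 34 strings searched on both strands, 14 were more frequent within 50 bp of the summit than in the flanks with an interval that excludes 0, 16 were less frequent, and 4 had an interval that holds 0. E-boxes are the sites of basic helix-loop-helix factors, and the form CACCTG is also that of the zinc-finger repressors SNAI and ZEB. The E-box CAGCTG was in 13.5% (13.1% to 13.9%) of summits and 5.73% of flanks, a ratio of 2.35. It was also in 9.12% of the sites with a partner, 4.38 points less (3.81 to 4.95), and in 9.34% of REX1-only distal sites, but 12.6% with a REX1 peak alone. CACCTG was in 16.3% of summits and 8.47% of flanks, and in 25% of the sites with a partner, where it stood at 40.9% with both other lists, 15.5% with the mutant alone and 15.6% with REX1 alone. CATCTG rose from 8.50% to 9.78% and CACGTG from 1.64% to 3.22%. Sites of ZIC factors (CCTGCTG), zinc-finger proteins of early neural development, rose from 3.73% to 9.32%. Sites of AP-2 factors (GCCNNNGGC) rose from 2.85% to 8.08%. The box of KLF and SP factors (GGGNGNGGC), the former part of the naive pluripotency network, rose from 2.80% to 6.30%, and the site of ZFX (AGGCCTG) from 2.61% to 5.62%. The NF1 half-site NTGCCAAG (1.93% to 3.09%), the RFX half-site GTTGCCA (0.975% to 1.55%), the ETS site and the core of CTCF (0.119% to 0.370%) rose less in points.
Strings rich in A and T were among the 16 less frequent at the summits. The LIM-homeodomain site TAATTA, the kind bound by factors whose LDB cofactors RNF12 ubiquitylates, was in 0.234% of summits and 2.25% of flanks. The GATA site AGATAA stood at 1.28% and 4.6%, the octamer ATGCAAAT of OCT4 at 0.156% and 0.497%, the SOX site CTTTGTT at 0.867% and 2.30%, the ESRRB site TCAAGGTCA at 0.156% and 0.263%, and the TCF/LEF site TTCAAAG at 0.739% and 2.11%. The NFY box CCAAT stood at 8.07% and 11.9%, the CEBP site TTGCNNAA at 1.93% and 3.52%, the site TCANNTTTC of sine oculis-type homeodomain factors at 0.764% and 1.91%, the AP-1 site TGANTCA at 2.19% and 2.87%, the TEAD site GGAATG at 4.91% and 5.41%, the FOX site TGTTTAC at 0.776% and 1.21% and the RUNX site TGTGGTT at 1.71% and 2.27%. Runs of the AC repeat were in 1.36% and 3.07% and of the AG repeat in 0.259% and 1.65%. Heat shock elements (GAANNTTC), of interest because proteasome inhibition activates the heat shock response, stood at 0.961% and 2.44%.

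Summits and flanks differ in base composition, so the shares were also compared between windows of 55% to 65% GC, of which there were 19843 at summits and 9764 in flanks. GC was not matched within this band, so summit and flank windows in it can still differ in composition. In these windows 11 of the 14 strings were still more frequent at the summit and 0 turned to less frequent. The gaps were smaller, with CAGCTG at 14% against 9.95% (difference 4.00 points), CACCTG at 16.7% against 13.9%, the ZIC string at 9.49% against 7.16% and the REX1 string at 8.30% against 6.72%. The KLF and SP box was in 6.04% of summits and 6.46% of flanks, and this difference of −0.425 points, like those of the RNF12 and CTCF strings, had an interval that holds 0. Of the 16 less frequent strings, 4 were still so, namely the SOX and TCF/LEF sites and the AC and AG repeats.

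**Figure D4:**
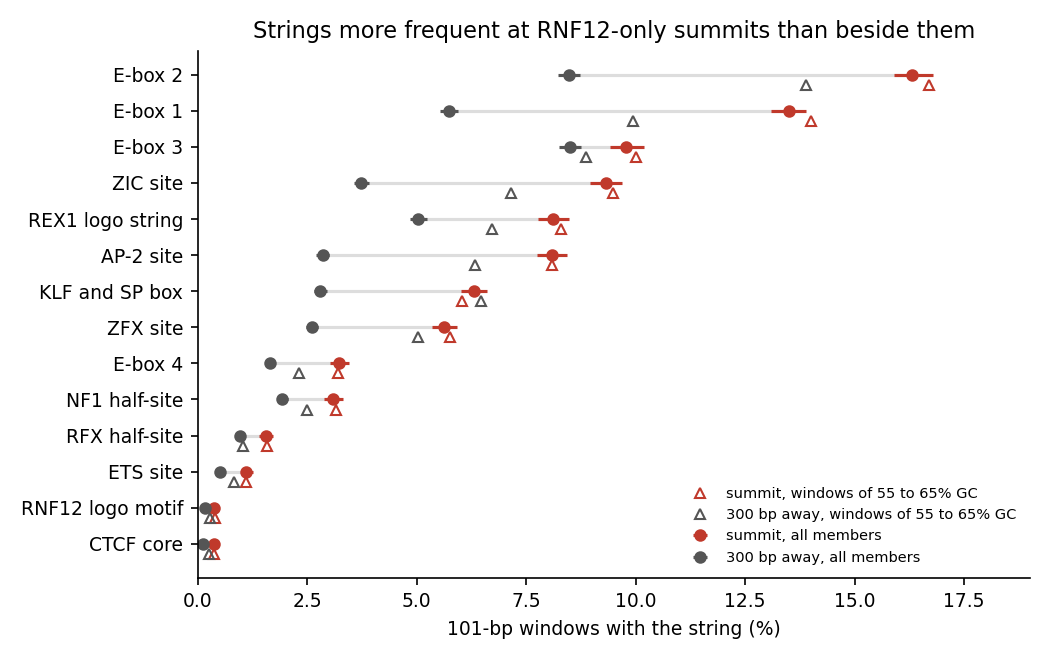
Points give the percentage of windows of 50 bases on either side of a point with each of 14 strings at RNF12-only distal summits (red) and 300 bp away (grey), with 95% Wilson intervals, and triangles the same in windows of 55% to 65% GC. E-box 1 is CAGCTG, E-box 2 is CACCTG, E-box 3 is CATCTG and E-box 4 is CACGTG, and grey triangles lie closer to the red ones than grey points to red points for all 14 strings.

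Words of 8 bases counted without any list told of the same composition. The 5 words with the largest gain at the summit, on either strand, were CTGCCTGC (4.71% of summits, 1.45% of flanks), CAGGCAGG (4.4% and 1.49%), CAGCCCAG (3.99% and 1.30%), CTGCTGCC (3.71% and 1.04%) and CAGCAGCC (3.64% and 0.979%). None of the 5 holds a CpG, and any of them was in 16.7% of summits and 5.45% of flanks. In windows of 55% to 65% GC the first of them was in 4.84% and 3.11%. It was in 2.91% of the sites with a partner, 3.38% of REX1-only distal sites and 4.65% of mutant RNF12-only distal sites. CAGGCAGG and CAGCCCAG were also less frequent in sites with a partner, at 2.46% and 1.95%, but CTGCTGCC and CAGCAGCC were more frequent there, at 4.52% and 4.01%. No long word was common. The most frequent word of 24 bases, cacacacacacacacacacacaca, was in 79 sites (0.324%), and is printed because it is a simple repeat. The word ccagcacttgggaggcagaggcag was in 59 RNF12-only distal sites (0.242%) and in 2233 mutant RNF12-only distal sites (5.69%).

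Soft-masking, CAGCTG and GC were close in the weakest and strongest sites. Of the 1565 sites with −log10 q under 2, 16.7% (14.9% to 18.6%) had a soft-masked summit, 13.2% held CAGCTG and the median GC was 59.4%. Of the 1200 sites with 8 or more, 14.2% (12.4% to 16.3%) had a soft-masked summit, 14.5% (12.6% to 16.6%) held CAGCTG and the median GC was 60.4%. The intervals of both shares overlap. The 32 bases at the summit were found once in 90.3% (88.7% to 91.7%) of the sites under 2, 94.4% (93.9% to 94.8%) of those from 3 to 5 and 92.2% (90.6% to 93.6%) of those with 8 or more, so the weakest sites stood below the middle ones. Widths differed, with medians of 106 and 119 bp.

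The sites were sparse on chromosomes 10, 12 and X. There were 3.70 per Mb on chromosome 10 (470 sites), 2.95 on chromosome 12 (345) and 2.95 on the X chromosome (483), while the other 17 chromosomes ranged from 6 on chromosome 3 to 17.3 on chromosome 11. The whole RNF12 WT list was sparse on these 3 as well, at 24.2, 19.6 and 20.1 peaks per Mb against 26.5 to 67.4 elsewhere. REX1 peaks were not sparse on chromosomes 10 and 12, at 35.8 and 50.4 per Mb within the range of 25.1 to 59.9 elsewhere, but were on X, at 19.5. Mutant RNF12 peaks stood at 36.8, 36.8 and 32.1 per Mb, within the range elsewhere. The share of RNF12 WT peaks that were RNF12-only distal sites was 15.3% (14.1% to 16.6%), 15.1% (13.7% to 16.6%) and 14.7% (13.5% to 15.9%) on these chromosomes and 21.8% to 30.3% on the others. On chromosome 12 the density was 4.81, 3.02 and 1.15 per Mb along its length in 3 equal parts, and on chromosome 10 it was 2.65, 5.55 and 2.83. Such parts of the other 17 chromosomes ranged from 3.56 to 32.8 per Mb, so the first part of chromosome 12 and the middle of chromosome 10 lay within that range, and the other 4 parts below it. The median fold enrichment was 4.54, 4.81 and 4.64 on these chromosomes and 4.79 on the others.

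**Figure D5:**
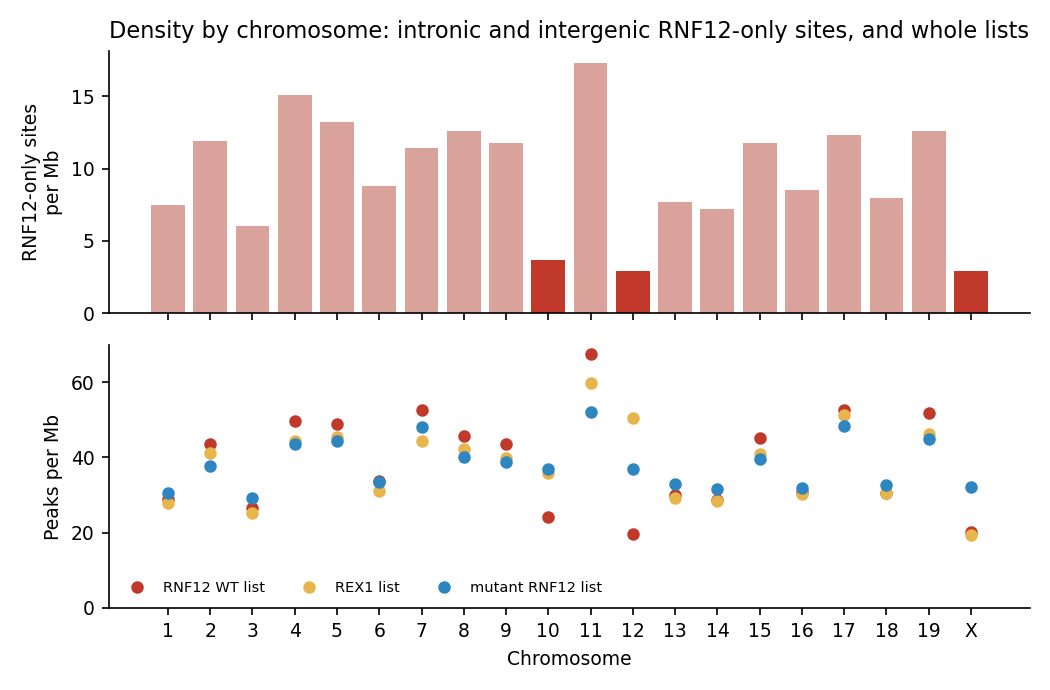
Bars (top) give RNF12-only distal sites per Mb of sequence on each chromosome, with chromosomes 10, 12 and X in dark red, and points (bottom) give the peaks per Mb of each whole list. The dark bars, between 2.95 and 3.70 per Mb, are below all others, and on chromosomes 10 and 12 the red RNF12 WT points lie below the REX1 and mutant points.

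Of the intronic sites, 13263 (91.0%, 90.5% to 91.4%) lay in a protein-coding gene. A site was found in an intron of 5481 of 20291 protein-coding genes with an intron (27%), of which 2928 held 1 site and 673 at least 5. With −log10 q of at least 5 this was 2813 genes. The share of genes with a site rose with the total length of their introns, from 6.65% (6.13% to 7.21%) under 10 kb to 69.0% (64.9% to 72.8%) over 300 kb. The density did not, at 18.5 sites per Mb of intron under 10 kb, 21.1 from 10 to 30 kb, 19 from 30 to 100 kb, 15.1 from 100 to 300 kb and 7.21 over 300 kb. Over all protein-coding genes it was 13.9 per Mb.
The 10 genes with the most sites were long. *Gm20388* held 290 and *Fgfr2*, a receptor for fibroblast growth factors, 61, but the annotated spans of these are 4.43 and 2.96 Mb and contain 71 and 29 other protein-coding genes, which also hold 131 and 33 of the sites. *Camta1*, a calmodulin-binding transcription factor, held 59, and *Gse1*, a partner of a histone deacetylase complex, held 53 in 341 kb of intron (156 per Mb), and lies inside the *Gm20388* span. *Rbfox3*, the neuronal splicing factor NeuN, held 37, *Prdm16*, a zinc-finger regulator of brown fat and stem cells, 34, and *Cdh4*, a cadherin, 30. *Agap1* and *Zfhx3* held 28 each and *Zfp423*, a zinc-finger cofactor of SMADs, 26. These genes also held RNF12 WT sites with a partner, from 8 in *Agap1* to 135 in *Gm20388*.

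Lists of genes were read against this background of 27% of genes, 13.9 sites per Mb and a median of 0 sites per gene. Of the genes of TGF-beta, Nodal, BMP and SMAD signalling, 17 of 27 held a site (63.0%, 19.7 per Mb, median 1 per gene). Among them *Smad3*, a transducer of TGF-beta and Nodal signals, *Smad6*, an inhibitor of BMP signals, and *Smurf1*, a ubiquitin ligase for SMADs, held 7 each, and *Tgfbr3*, a coreceptor, held 5. In the WNT list 14 of 23 held a site (60.9%, 20.2 per Mb), with 7 each in *Tcf7l1* and *Tcf7l2*, which encode DNA-binding partners of beta-catenin, 5 in the coreceptor gene *Lrp5* and 3 in *Axin2*, an inhibitor of the pathway. The median intron lengths of these lists were 60.8 and 52.9 kb, against 15.2 kb for all genes, and 46.3% of all genes with 30 to 100 kb of intron held a site, at 19 per Mb, so both densities were close to that of genes of like length. Without the 2 genes with the most sites, their densities were 14.4 and 14.8 per Mb. Leaving out the genes with the most sites tends to lower a density. The background values, here and for the lists below, keep such genes.
In the list of FGF signalling and the primed state 10 of 22 genes held a site (45.5%, 23.6 per Mb), and 61 of its 86 sites were in *Fgfr2*. The density was 28.2 per Mb without *Fgfr2* and 22.7 without *Fgfr2* and *Fgfr1*, beside 21.1 for all genes of 10 to 30 kb of intron, the class of the list's median of 26.6 kb. *Fgfr1*, another receptor, and *Lef1*, a partner of beta-catenin, held 6 each and *Etv5*, an ETS factor, 4. In the list of LIM-homeodomain, LMO and LDB genes 10 of 21 held a site (47.6%, 20.1 per Mb). Of all genes with 10 to 30 kb of intron, the class of the list's median of 21.5 kb, 25.8% held a site. There were 9 sites each in *Lmx1b*, a LIM-homeodomain factor, and *Ssbp3*, which stabilises LDB proteins, 2 in *Lhx2* and 1 in *Isl2*. Without *Lmx1b* and *Ssbp3* the density was 7.90 per Mb. Of the naive pluripotency genes 7 of 23 held a site (30.4%), among them the LIF receptor genes *Lifr* with 4 and *Il6st* with 2, *Fgf4* with 3 and *Esrrb* with 1.
Of 30 genes of Polycomb complexes 9 held a site (30.0%, 27.1 per Mb), and *Phc2* with 10 and *Bcor* with 9, both for subunits of PRC1, held 19 of the 30 sites. The other 28 genes held 12.2 per Mb, with 3 in *Cbx7* and 2 in *Pcgf2*. *Bcor* also held 24 RNF12 WT sites with a partner. Genes of DNA methylation and demethylation stood at 7 of 19 (36.8%, 21.5 per Mb). There were 4 sites in the maintenance methyltransferase gene *Dnmt1*, 3 each in *Dnmt3a* and *Tet3* and 2 in *Uhrf1*. The Polycomb and DNA methylation lists have median intron lengths of 20.7 and 23.6 kb. Of all genes with 10 to 30 kb of intron, 25.8% held a site, at 21.1 per Mb. Genes of X-inactivation stood at 4 of 15 (26.7%, 10.1 per Mb), with 2 in *Smchd1*, 2 in *Spen* and 1 each in *Ciz1* and *Kdm6a*. Without *Smchd1* and *Spen* the density was 4.63 per Mb.
The lists of neuronal genes held many sites at low density. In a list of long genes, mostly for synaptic adhesion and ion channels, 23 of 29 held a site (79.3%, median 3 per gene). The most, 37, were in *Rbfox3*, which like *Rbfox1* is on the list but encodes a splicing factor, followed by 30 in *Cdh4*, 13 in *Cdh13* and 12 in *Cacna1a*, a calcium channel. Their introns have a median of 1035 kb, and the density was 5.08 per Mb, or 3.09 without *Rbfox3* and *Cdh4*, beside 7.21 for all genes with over 300 kb. Of the axon guidance genes 15 of 27 held a site (55.6%, 9.74 per Mb), with 20 in *Slit3* and 10 in *Slit1*, for ligands of ROBO receptors, and 12 in *Ephb2* and 5 in *Ephb1*, for receptors of ephrins. Without *Slit3* and *Ephb2* the density was 6.48 per Mb. Of all genes with 100 to 300 kb of intron, the class of the list's median of 273 kb, 65.1% held a site, at 15.1 per Mb.

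The genes of the proteins under study were also looked up, chosen for their role. The *Rlim*, *Zfp42*, *Yy1*, *Xist* and *Tsix* genes held 0 RNF12-only distal sites, although 1, 1, 2, 2 and 5 RNF12 WT peaks of other kinds had summits inside them. The nearest RNF12-only distal site was 46085 bp from *Rlim* (fold enrichment 3.49), 26730 bp from *Zfp42* (4.16), 190440 bp from *Yy1* (4.10) and 82572 bp from *Tsix* (6.19). *Ldb1*, which encodes a LIM-domain cofactor ubiquitylated by RNF12, held 1 in an intron at chr19:46037993-46038159 (fold enrichment 4.46, −log10 q 6.18) among its 10 RNF12 WT peaks.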

How the data were processed

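Peak lists of 3 ChIP-seq libraries from mESCs were used. Per the labels and methods, the authors trimmed reads with Trim Galore 0.6.7, aligned them with Bowtie2 2.5.0 to an mm10 genome masked at strain differences, merged alleles with SAMtools 1.10 and called narrow peaks with MACS2 2.2.7.1. The deposited fold enrichment is a ratio of ChIP signal to control at the summit, and the authors deposited −log10 p and −log10 q values beside it. A deposited score was not used. Fold enrichments were compared within the RNF12 WT list only, since the control behind each list was not settled. Positions came from GENCODE release M21 and sequence and soft-masking from GRCm38. A gene's introns are its span outside every annotated exon. Copies of the 32 bases at a summit were counted over the genome on both strands. Scripts ran under Python 3.11.15 with pandas 2.3.3, scipy 1.17.1 and numpy 2.4.6, and overlap, gap, string and interval steps were tested on simulated data.

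The sites, gene lists and strings were chosen with earlier results of these data known. Named sites were the 6 intronic and 6 intergenic ones with the highest fold enrichment, 3 of each without soft-masked bases, those nearest to the 1 kb limit and to the other lists. Named genes were the 10 with the most sites and up to 4 per list. Alternatives changed the threshold, the overlap, the TSS distance, the annotation and the string window. The comparison in windows of 55% to 65% GC, and the densities without the 2 genes of a list with the most sites, were chosen after seeing the data.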

Additional observations from a re-analysis of the deposited data

How the results depend on the processing

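With 1 library per list no replicate could be left out, and no paired analysis was possible because no group has a second sample. The number of sites moved by more than 1.5 times only with −log10 q of at least 5, to 8273 from 24350, and so did the number of protein-coding genes with a site, to 2813 from 5481. With 50% overlap of both peaks required for a partner, the intronic share was 53.8%, the median fold enrichment 4.53, the soft-masked share 29.5% and the median GC 60.4%. With summits within 100 bp as the criterion these were 56.5%, 4.57, 22.7% and 60.4%. The soft-masked share thus depends on the overlap chosen, and the cause was not tested. With a partner counted within 1 kb of the summit the intronic share was 58.9% and the soft-masked share 15.6%. With −log10 q of at least 5 the intronic share was 58.8%, the median fold enrichment 5.85 and the median GC 60.4%, and with at least 2 the median fold enrichment was 4.83. The intronic share was 57.0% beyond 3 kb of a TSS, 61.0% with protein-coding TSSs only and 58.1% with whole peaks outside exons.

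The number of strings more frequent at the summit stayed between 11 and 15 over its 5 alternatives, and the 14 strings were all among those in the 4 alternatives other than the GC windows. In windows of 55% to 65% GC the difference of the KLF and SP box was −0.425 points (−1.02 to 0.156), an interval that holds 0, so no direction is read from it. The E-boxes CAGCTG and CACCTG, the ZIC and AP-2 strings and the REX1 string stayed more frequent at the summit in all 5. Depth is unknown, so the absence of a partner peak cannot be told apart from a peak that the other library was too shallow to call.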
